A study of Mus musculus with 4 samples.

Results

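The SoxE genes Sox8, Sox9 and Sox10 form one branch of the Sox family of transcription factors, and their RNA was followed in embryonic mouse cortex that had lost both MEK kinases. The genes were found by their symbol in the platform annotation, and all 3 were measured, among 19938 genes with a feature (a set of probes summarised into 1 value) of their own. Each had 1 feature, so no choice between features was needed. All 3 were bright enough to enter the test, which covered 13956 genes.

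Dorsal cortex was taken at E18.5 (embryonic day) and 1 RNA sample was hybridised per array. The 2 mutant samples have the genotype Mek1fl/fl, Mek2-/- with NestinCre, a transgene in which the nestin promoter drives Cre recombinase in neural progenitors, so that the neurons and glia made from them also lose Mek1, whereas blood vessels and microglia, which come from other lineages, largely keep it. The 2 control samples have the genotype Mek1fl/wt, Mek2-/- and no Cre is named for them. Both groups therefore lack Mek2, and the comparison is of Mek1 loss together with the transgene, which cannot be told apart. Nothing in the labels gives a litter or a hybridisation batch. Values are log2 expression, normalized by the authors with RMA, and differences are mutant minus control. On this scale a difference of 1 is a doubling, and a level of one feature cannot be set against that of another.

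SoxE proteins bind DNA through a high mobility group box and act as homodimers or heterodimers with each other. In the developing nervous system Sox9 comes first: it is active in radial glia, the stem cells of the cortex, supports their self-renewal, and is needed for the switch from making neurons to making glia. Sox8 overlaps with it in progenitors, astrocytes and oligodendrocyte precursors. Sox10 appears once a cell has become an oligodendrocyte precursor and later switches on myelin genes. Outside the brain Sox9 directs cartilage formation and Sox10 directs Schwann cells and melanocytes.

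The labelled tissue was borne out by its neurons, with Neurod6, a transcription factor of cortical projection neurons, at 12.11 and 12.04 in mutants and 12.05 and 12.02 in controls. The array medians over all features lay between 7.11 and 7.13. Map2k1, the gene of MEK1, was at 8.50 and 8.73 in mutants and 8.76 and 8.84 in controls, which missed the threshold (difference -0.19; limma, adjusted p = 0.469). The probes that lie in the deleted part are not known here, so this value checks nothing about the deletion. Each group held 1 male and 1 female sample.

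All 3 SoxE genes were lower on both mutant arrays than on both control arrays. Sox9 had 8.09 and 8.26 in mutants, against 8.85 and 8.89 in controls. Sox8 had 7.16 and 6.99 in mutants, against 7.75 and 7.58 in controls. The groups are well apart for both genes, and the gap is wider than the distance between the arrays of a group. Sox10 had 7.08 and 6.98 in mutants, against 7.33 and 7.28 in controls. Its groups do not overlap either, but they lie closer together. Of the tested genes, 21.4% were lower in mutants with no overlap between the groups, so the separation alone is common on these arrays.

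**Figure D1:**
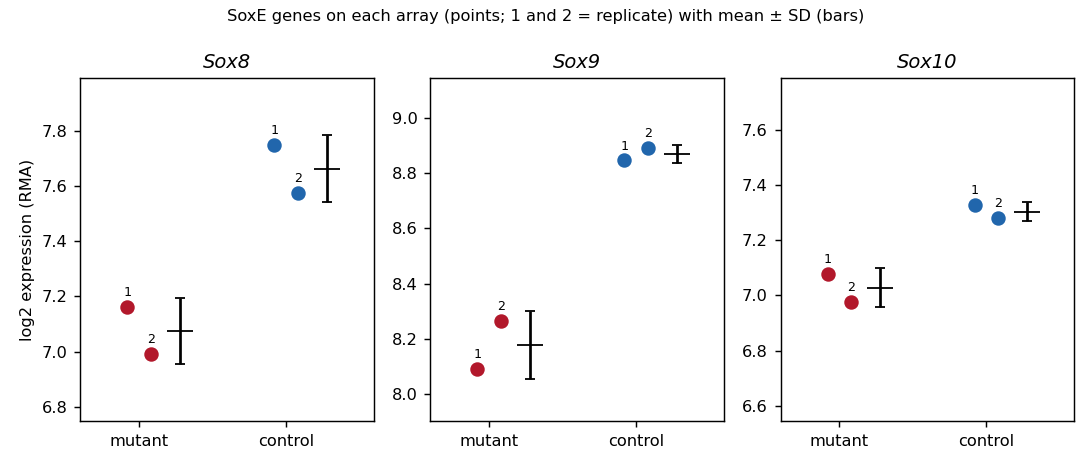
Log2 expression of Sox8, Sox9 and Sox10 on each array (points, with the replicate number above), mutants at the left of each panel, with the group mean and SD as a bar (n = 2 per group); every panel spans the same number of log2 units. The mutant points lie below the control points in each panel, and the gap is narrowest for Sox10.

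Sox9 was the SoxE gene that passed the test. It averaged 8.18 ± 0.12 in mutants and 8.87 ± 0.03 in controls (SD, n = 2 each), a difference of -0.69 ± 0.08 (SE) or a 1.62-fold fall (limma, adjusted p = 0.0320; 95% interval -0.89 to -0.50 before adjustment). Only 0.767% of the tested genes had a lower difference. In all, 1.01% of the tested genes were called lower and 0.0143% higher, at an adjusted p under 0.05. At an unadjusted p under 0.05, 1073 of the 13956 genes tested were lower and 799 higher. The call on Sox9 rests on both controls: it was lost without control 1 (adjusted p = 0.201) and without control 2 (adjusted p = 0.195), although the difference stayed between -0.78 and -0.60 whichever array was left out. It was also lost when dim genes were kept (adjusted p = 0.0823) and with embryo sex as a block, a setting chosen after seeing the data (adjusted p = 0.0706), and over all settings the adjusted p in limma ran from 0.00297 to 0.284.

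Sox8 differed almost as much as Sox9 but did not pass. It averaged 7.08 ± 0.12 in mutants and 7.66 ± 0.12 in controls (SD, n = 2 each), a difference of -0.59 ± 0.09 (SE), or 1.50-fold (limma, adjusted p = 0.0699; 95% interval -0.82 to -0.36 before adjustment). It stood just outside the threshold. It passed with a mean trend in the spread (limma adjusted p = 0.0483). The replicate number as a block also gave a pass (adjusted p = 0.0481). Its adjusted p reached 0.391 when every feature was tested. Without mutant 1 the difference was -0.67 and without mutant 2 it was -0.50, in fits that leave 1 mutant array. Sox10 averaged 7.03 ± 0.07 in mutants and 7.30 ± 0.03 in controls (SD, n = 2 each), a difference of -0.28 ± 0.06 (SE), or 1.21-fold. It did not pass in the fit (limma, adjusted p = 0.172; 95% interval -0.44 to -0.12 before adjustment), nor under any setting tried (adjusted p from 0.0995 to 0.729). A larger share of genes, 5.04%, had a lower difference than Sox10, against 1.30% for Sox8. In whole tissue, fewer cells of a type and less RNA per cell cannot be told apart.

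**Figure D2:**
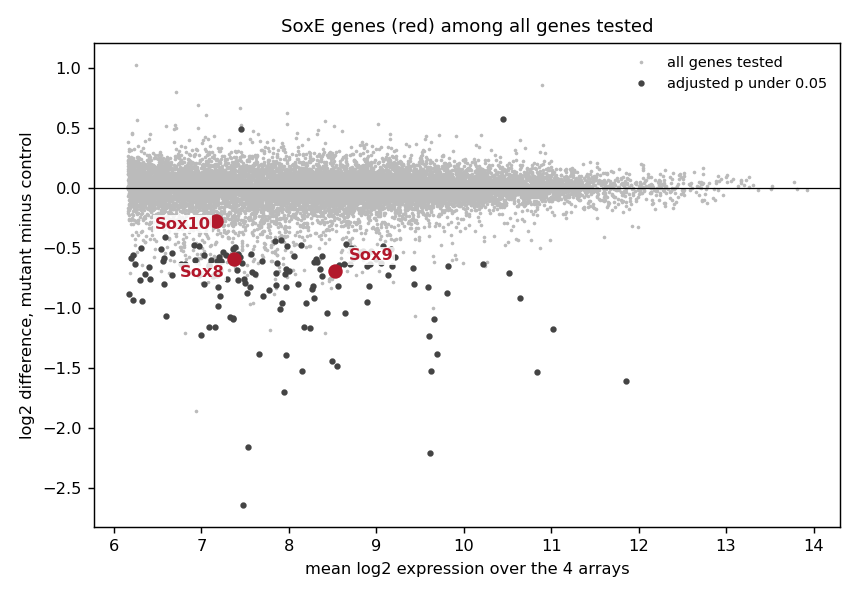
Difference between mutant and control (vertical axis, log2) against the mean log2 expression over the 4 arrays (horizontal axis) for the 13956 genes tested, with called genes in dark grey and the SoxE genes in red. Sox9 at -0.69 and Sox8 at -0.59 lie at the lower edge of the cloud among called genes, and Sox10 at -0.28 lies nearer to its body.

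The members were also compared with each other inside each array, which removes anything that shifts a whole array. The level of Sox9 minus that of Sox10 was 1.01 and 1.29 in mutants and 1.52 and 1.61 in controls. Sox8 minus Sox10 was 0.08 and 0.01 in mutants and 0.42 and 0.30 in controls. In both pairs the mutant values lie below the control values, by 0.42 and 0.31 on average, so that Sox10 was the least lowered of the 3 on these arrays. Sox9 minus Sox8 was 0.93 and 1.27 in mutants and 1.10 and 1.32 in controls, and these groups overlap. With 2 arrays a group an exact two-sided permutation test cannot go below p = 0.333, which both pairs with Sox10 reached, while the pair of Sox9 and Sox8 gave p = 0.667 (exact permutation; adjusted over the 3 pairs, p = 0.5 for each pair with Sox10 and p = 0.667 for Sox9 and Sox8). The members are therefore not shown to differ in size of response.

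The arrays within the mutant group were not ordered alike. Sox9 was lower on mutant 1 than on mutant 2, and Sox8 and Sox10 were lower on mutant 2. The 16 tested radial glia genes, averaged over each array, stood at 8.85 on mutant 1 and 9.06 on mutant 2, against 9.60 and 9.61 in controls. Being lower on mutant 1 was not particular to that list. The GABAergic interneuron list (9.54 on mutant 1 and 9.83 on mutant 2) and the endothelial list (8.15 and 8.36) were too. Other lists, such as the melanocyte list (7.18 and 7.11), went the other way, and all genes tested averaged 8.50 and 8.54.

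The RefSeq promoter table (build GRCm38.p6) held no window that matched Sox9 or Sox10, so only the start of Sox8 is shown. The 250 bases before it, at chr17:25570687-25570936 on the minus strand, are printed in the direction of transcription, and capitals mark the matches to GGGCGG, the GC box bound by SP factors.
Sox8: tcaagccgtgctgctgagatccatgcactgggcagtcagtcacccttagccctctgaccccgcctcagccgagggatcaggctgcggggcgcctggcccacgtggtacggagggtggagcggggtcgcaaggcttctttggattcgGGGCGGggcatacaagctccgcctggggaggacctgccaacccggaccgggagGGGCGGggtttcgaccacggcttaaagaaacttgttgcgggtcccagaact

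The window has a GC content of 65.6%, against a median of 52.4% over the 32851 windows of the table, and holds 18 CpG dinucleotides against a median of 6. The GC box, searched after the window had been seen, matched 2 times, and 32.7% of all windows hold at least 1 match on either strand. The SOX cores ACAAAG and ACAATG, the ETS core CCGGAA and the RBPJ core TGGGAA had no match on either strand in these letters, and 16.5%, 10.7%, 12.03% and 21.6% of all windows hold them in that order. These motifs do not overlap each other in the window. A match or its lack is a description of the letters and says nothing of binding.

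None of the tested genes next to the SoxE genes in the RefSeq gene table was called. Polr2f, a subunit shared by RNA polymerases that is the neighbour of Sox10, had 10.51 and 10.57 in mutants and 10.59 and 10.58 in controls. Lmf1, a lipase maturation factor that is the nearest measured gene on one side of Sox8, had 8.38 and 8.41 in mutants and 8.38 and 8.33 in controls. The differences were -0.04 for Polr2f and 0.04 for Lmf1. The noncoding neighbours Gm11681 of Sox9 and Gm10863 of Sox10 differed by 0.06 and -0.08, and none of these 4 passed in limma (adjusted p from 0.818 to 0.880). The other nearest measured genes, Sstr5 beside Sox8 and the noncoding BC006965 beside Sox9, were too dim to be tested.

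Of the Sox family outside SoxE no gene was called. Of 16 other Sox genes measured, 15 were tested in limma, and 3 were lower and 1 higher at an unadjusted p under 0.05. Their median difference was -0.07, against -0.59 for the 3 SoxE genes and 0.01 for all genes tested. Means were lower in mutants for 8 of the 15, close to the 47.7% of all genes tested. Sox9 and Sox8 had the lowest differences among the 18 tested Sox genes, and those of Sox2 and Sox21 came next, below that of Sox10. Sox30, a germ cell factor, was too dim to be tested.

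The progenitor factors among them leaned the same way as the SoxE genes without passing. Sox21, a SoxB2 protein that opposes SoxB1 factors in progenitors, had 7.76 and 7.73 in mutants, against 8.17 and 8.10 in controls (difference -0.40 ± 0.06, SE; limma adjusted p = 0.0615). Its groups are clearly apart, and it passed when genes under the 50th percentile were left out (limma adjusted p = 0.0393). The adjusted p reached 0.364 when every feature was tested. Without mutant 2, in a fit that leaves 1 mutant array, the difference was -0.38. Sox2, the SoxB1 factor that keeps neural stem cells undifferentiated, had 10.02 and 10.45 in mutants, against 10.57 and 10.84 in controls. Its groups are separate but the arrays of each group are spread. The test was not passed (difference -0.47 ± 0.16, SE, limma adjusted p = 0.317). With all arrays kept Sox2 passed under no setting. Its difference was -0.69 without mutant 2 and -0.26 without mutant 1. Its SoxB1 relatives Sox1 and Sox3 differed by -0.08 and -0.13.

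Neuronal Sox genes did not share the lower values. Sox4, Sox11 and Sox12, the SoxC factors of young neurons, differed by 0.07, 0.12 and 0.09 (limma adjusted p from 0.428 to 0.685). Sox11 was at 12.46 and 12.45 in mutants and 12.36 and 12.30 in controls, a small gap in the opposite direction. Sox5, a SoxD factor of deep-layer projection neurons that can pair with SoxE proteins, had 10.96 and 10.73 in mutants and 10.56 and 10.31 in controls, which missed the threshold (difference 0.41 ± 0.12, SE; adjusted p = 0.239). With all arrays kept it passed under no setting. Its difference was 0.52 without mutant 2 and 0.28 without control 2. The other SoxD genes Sox6 and Sox13 differed by -0.13 and 0.01. The SoxF genes Sox7, Sox17 and Sox18, factors of blood vessels, differed by 0.01, 0.02 and -0.07, and Sox15 by -0.25 (adjusted p = 0.264).

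**Figure D3:**
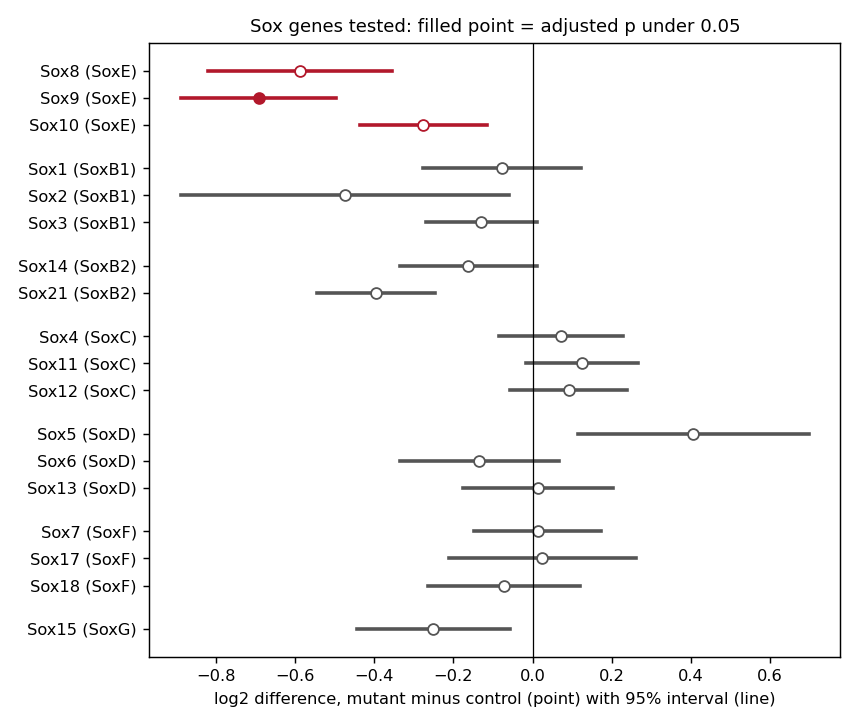
Log2 difference, mutant minus control, for the 18 Sox genes tested (points), grouped by branch from SoxE at the top, with the 95% interval of the fit before adjustment (lines; 2 arrays per group) and a filled point where the adjusted p is under 0.05. The filled point is Sox9 at -0.69, the intervals of the 3 SoxE genes and of Sox2, Sox21 and Sox15 lie below 0, that of Sox5 lies above 0, and the SoxC points lie just above 0.

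Glial genes known to depend on Sox9, or to be used together with it, held the most calls of the lists. Of 15 on the list 14 were tested, and 7 fell and none rose in limma, against 1.01% of all genes tested called lower. At an unadjusted p under 0.05, 11 were lower and none higher. The median difference was -0.67 against 0.01 over all genes tested. These counts include Sox10 itself, which is among the 11. They also include Nfia, Zcchc24, Mmd2 and Apcdd1, chosen after their values were seen, and Zcchc24 is among the 7. The rest of this list, like the other lists, was drawn up with earlier results of these data known. The counts therefore describe the list and do not test it. Slc1a3, the glutamate transporter of radial glia and astrocytes, had 8.84 and 8.89 in mutants, against 10.35 and 10.43 in controls (2.88-fold lower, adjusted p = 0.00538). Fabp7, a fatty acid binding protein of radial glia, had 10.97 and 11.13 in mutants, against 12.68 and 12.62 in controls (3.04-fold lower, adjusted p = 0.00538). The gap in both genes is larger than in Sox9 itself. Aldh1l1, a folate enzyme of astrocytes, fell 2.72-fold, Bcan, the matrix proteoglycan brevican, 2.79-fold, and Pdgfra, the receptor of oligodendrocyte precursors, 6.23-fold. Notch1, a receptor that keeps progenitors and promotes glia, fell 1.50-fold. The lists overlap, and Slc1a3, Fabp7, Aldh1l1, Bcan, Pdgfra and Notch1 are each counted on another list too. Slc1a3, Fabp7, Aldh1l1 and Pdgfra were called under 13 of the 14 other settings each, the exception being the test of every feature of the table. Fewer genes of the list were called without either control and more without mutant 2. The number lower at an unadjusted p under 0.05 moved the same way over all genes tested.

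Nfia and 3 genes that Sox9 and NFIA activate together in the embryonic mouse spinal cord were looked at after their values were seen. Zcchc24, one of the 3, had 6.62 and 7.02 in mutants, against 7.89 and 7.91 in controls, and fell 2.11-fold (limma adjusted p = 0.0427). That call was lost without control 1 (adjusted p = 0.206) and without control 2 (adjusted p = 0.195), in a range from 0.000665 to 0.316 over all settings. Mmd2 had 10.25 and 10.57 in mutants and 10.73 and 10.72 in controls, and did not pass (difference -0.31, adjusted p = 0.334). Apcdd1, a Wnt inhibitor, had 8.64 and 9.01 in mutants and 8.94 and 9.11 in controls, and its groups overlap (difference -0.20, adjusted p = 0.604). Nfia itself, the nuclear factor that Sox9 induces and then pairs with, had 10.89 and 10.79 in mutants and 10.86 and 10.81 in controls, a difference of 0.00 ± 0.06 (SE).

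None of the cartilage genes that Sox9 drives outside the brain was called. Of 12 on the list 8 were tested in limma, and 2 were higher and none lower at an unadjusted p under 0.05. The median difference was 0.08. Cnmd, the cartilage protein chondromodulin, had 6.95 and 7.26 in mutants and 6.32 and 6.29 in controls, a difference of 0.80 that just missed the threshold (adjusted p = 0.0519). Comp, a cartilage matrix protein, differed by 0.27 (adjusted p = 0.186). Acan, Matn1, Matn3 and Hapln1 were too dim to be tested.

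Oligodendrocyte lineage genes that Sox10 regulates or works with included 2 that fell, both of the precursor stage. Of 18 on the list 13 were tested and none rose in limma. At an unadjusted p under 0.05, 5 were lower and none higher, against 1073 and 799 of the 13956 genes tested. The median difference was -0.05. Pdgfra had 6.01 and 6.29 in mutants, against 8.97 and 8.61 in controls (adjusted p = 0.00934). Olig1, an oligodendrocyte lineage factor, had 6.28 and 6.64 in mutants, against 8.36 and 8.87 in controls, and fell 4.46-fold (adjusted p = 0.0251). On the mutant arrays both stood close to the filter on dim genes (6.16), so their folds depend on the background. Pdgfra, with a mutant mean of 6.15, entered the test through its controls. Olig2, which acts upstream of Sox10 in precursors, had 6.39 and 5.63 in mutants, against 8.05 and 7.68 in controls. Its groups are far apart but the mutant arrays differ, and it did not pass (difference -1.85, adjusted p = 0.0567). Its mutant mean of 6.01 lay below the filter too. Ugt8a, a myelin lipid enzyme, differed by -0.51 (adjusted p = 0.0643). Fewer genes of the list were called without control 2 and more without mutant 2, as with the list above.

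Sox10 had a smaller difference than the called precursor genes on the same arrays, and whether it differs from theirs was not tested. The 13 tested genes of the oligodendrocyte precursor list averaged 7.80 and 7.79 in mutants and 8.55 and 8.58 in controls, with a median difference of -0.48, and 5 of them fell (limma; 2 without control 1 and 1 without control 2). These were Pdgfra, Olig1, Bcan, the receptor Gpr17 (1.92-fold) and the G protein subunit Gng12 (1.43-fold). Both mutant values of Gpr17 lay below the filter on dim genes, so its fold depends on the background too. Over all genes tested 1.01% were called lower. The members not called ran from -1.85 (Olig2) to 0.14 (Vcan), with Cspg4 at 0.01 and Tnr at 0.11, and the Sox10 difference of -0.28 lies inside that range. Sox10 itself was at 7.08 and 6.98 in mutants and 7.33 and 7.28 in controls. Both the Sox10 and the Sox8 means lay below the 50th percentile of all genes (7.47), where folds measured by RMA are compressed towards 0. How far this compression shaped the Sox10 difference was not tested.

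Genes that act upstream of Sox9 in neural progenitors were lower in part. Of 20 on the list 19 were tested, and 4 fell and none rose in limma, against 1.01% of all genes tested called lower. There were 11 lower and none higher at an unadjusted p under 0.05, with a median difference of -0.23. Etv5, an ETS factor induced by ERK signalling, had 7.28 and 7.27 in mutants, against 8.71 and 8.61 in controls, and fell 2.62-fold (adjusted p = 0.00538). Etv4, its relative, had 6.25 and 6.35 in mutants and 7.02 on both control arrays, a 1.65-fold fall. Gli3, a transcription factor of the hedgehog pathway, had 6.73 and 6.83 in mutants, against 7.71 and 7.50 in controls, a 1.77-fold fall. Notch1 was the other call. The replicate number as a block gave 2 calls. Fewer genes were called without either control and more without mutant 2. Over all genes tested, the number lower at an unadjusted p under 0.05 moved likewise.

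No partner or modifier of SoxE proteins was called. Of 18 on the list 16 were tested in limma, and the median difference was -0.02. At an unadjusted p under 0.05, 3 were lower and none higher, against 1073 and 799 of the 13956 genes tested. Beside Olig2, the smallest p belonged to Chd7, a chromatin remodeller that works with Sox2 and Sox10. Its brightest feature had 8.99 and 9.13 in mutants, against 9.50 and 9.46 in controls, short of the threshold (difference -0.41, adjusted p = 0.0856). Chd7 has 30 features on this array, all of which were lower on both mutant arrays than on both controls, with differences from -0.98 to -0.19. The features share 1 transcript and the same RNA and are not independent. Some genes of the list were called without mutant 2, when more of all genes tested were lower at an unadjusted p under 0.05.

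**Figure D4:**
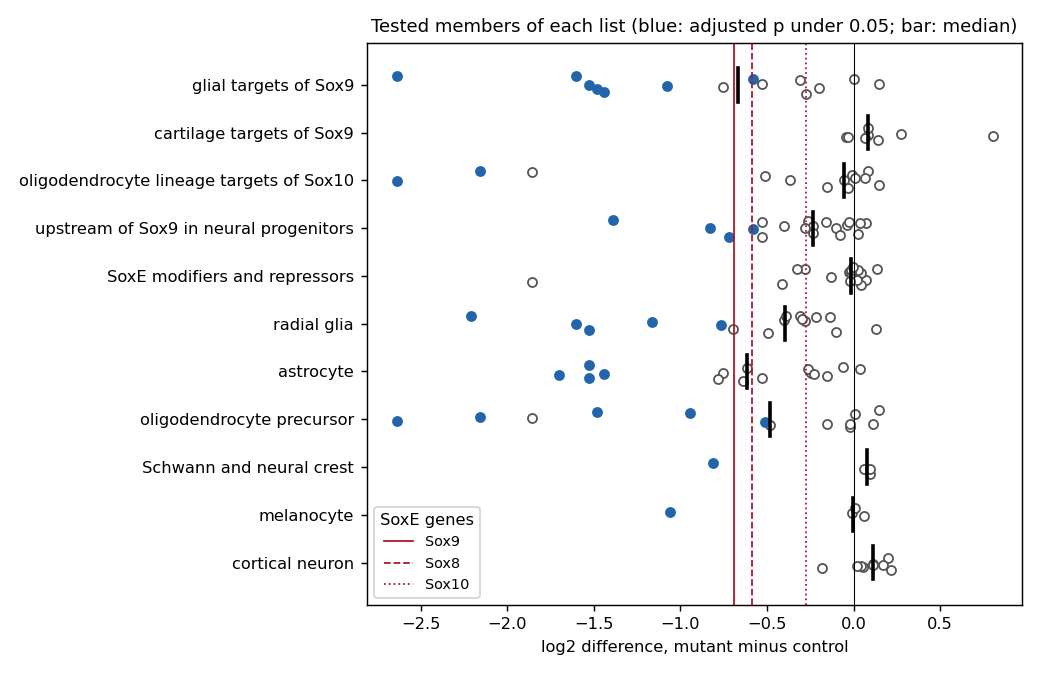
Log2 differences, mutant minus control, of the tested members of 11 gene lists (points, blue where the adjusted p is under 0.05; black bar, list median), with the differences of Sox9, Sox8 and Sox10 as vertical red lines. The glial target, radial glia, astrocyte and oligodendrocyte precursor lists reach far to the left of the Sox9 line, and the cartilage, Schwann cell, melanocyte and neuron lists centre near 0.

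Some genes of the cells that carry SoxE factors in this tissue were lower too. Of 16 tested radial glia genes 5 fell and none rose (median difference -0.40; 12 lower and none higher at an unadjusted p under 0.05), among them Tnc, an extracellular matrix protein (4.62-fold), Hopx, a homeodomain protein (1.70-fold), and Ednrb, an endothelin receptor (2.24-fold). In radial glia fewer genes were called without either control and more without mutant 2. The number of genes lower at an unadjusted p under 0.05 moved the same way over all genes tested. The 15 tested astrocyte genes had a median difference of -0.62, with 10 lower and none higher at an unadjusted p under 0.05. In limma 4 of them fell and none rose, and more were called without mutant 2. Beside Slc1a3 and Aldh1l1 the 4 were Aldoc, a glycolytic aldolase (2.88-fold), and Acsbg1, a fatty acyl-CoA synthetase (3.25-fold). Over all genes tested, 1.01% were called lower. Groups not overlapping with lower values in mutants made up 21.4% of all genes tested, against 15 of 16 radial glia genes and 12 of 15 astrocyte genes. Those with higher values in mutants made up 22.8%, against 1 of 16 radial glia genes and 0 of 15 astrocyte genes. The part of these cells in the lower SoxE values was not tested.

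Defining genes of other cell types that make Sox10 were mostly dim. The Schwann cell and neural crest list had 4 of 12 genes bright enough to test, and the defining genes Foxd3, Egr2 and Cdh19 were below the filter in both groups. Pmp22, a membrane protein of myelinating Schwann cells that other cells also make, had 8.50 and 8.52 in mutants, against 9.39 and 9.26 in controls, and was the member that fell (1.76-fold, limma adjusted p = 0.0214; from 0.00393 to 0.258 over all settings, and not called without control 1 or without control 2). The melanocyte list had 4 of 7 genes tested, with Mitf, Tyr and Tyrp1 below the filter. Dct, a melanin enzyme that is a Sox10 target in melanocytes, had 6.02 and 6.11 in mutants, against 7.12 and 7.13 in controls, and fell 2.09-fold (adjusted p = 0.00934; from 0.000952 to 0.217 over all settings, and not called without control 1 or without control 2). Both mutant values of Dct lay below the filter on dim genes, so its fold depends on the background. Dct entered the test through its controls. The other tested members of the 2 lists did not share the falls of Pmp22 and Dct. Ngfr, Gap43 and Pou3f1 differed by 0.10, 0.06 and 0.09, and the Schwann cell list had a median difference of 0.08. Kit, Mlana and Pmel differed by 0.06, -0.01 and 0.01, and the melanocyte list had a median of -0.002. Averaged over the tested members, the Schwann cell list stood at 9.48 and 9.44 in mutants and 9.64 and 9.56 in controls. The melanocyte list stood at 7.18 and 7.11 in mutants and 7.40 and 7.39 in controls.

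Among markers of the remaining cell types, calls were made for 1 endothelial and 1 microglial gene. None of the 9 tested cortical neuron genes was called in limma (none lower and 1 higher at an unadjusted p under 0.05; median difference 0.11), and neither was any of the 8 GABAergic interneuron genes (none lower and 1 higher; median -0.07), the 8 meningeal and fibroblast genes (1 lower and none higher; median 0.06) or the 5 choroid plexus and ependymal genes (none lower and 1 higher; median -0.12). The smallest p in these lists belonged to Neurod2 (0.20), Tubb3 (0.17), Npy (0.30), Dlx1 (-0.16), Zic1 (-0.54), Col3a1 (0.14), Foxj1 (0.15) and Folr1 (-0.12), given with their log2 differences, none of which passed (limma adjusted p from 0.191 to 0.527). Of 8 endothelial genes Slco1c1, a thyroid hormone transporter found in glia too, fell and none rose (1 lower and none higher at an unadjusted p under 0.05; median -0.01). Of 6 microglial genes Fcrls fell and none rose (median -0.26). But 4 were lower and none higher at an unadjusted p under 0.05, against 1073 and 799 of the 13956 genes tested. In 5 of the 6 both mutant arrays lay below both control arrays, against 21.4% of all genes tested, and the part of microglia in the results above was not tested. Neither Slco1c1 nor Fcrls was called without control 1 or without control 2.

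The genes whose levels over the 4 arrays ran closest to each SoxE gene were found by the root mean square distance of values centred on each gene's mean. For Sox9 these were Tacc3, a mitotic spindle protein (0.017), Nrarp, a Notch feedback inhibitor (0.020), the lactonase Pon2 (0.022), Dlgap5, a mitotic spindle protein (0.024), and Ddah1, an enzyme of arginine metabolism (0.033). For Sox8 they were Fbxo5, an inhibitor of the anaphase promoting complex (0.027), the peroxisomal enzyme Crot (0.035), the transcription cofactor Eya1 (0.037), the unnamed E130114P18Rik (0.038) and Luzp2 (0.046). For Sox10 they were Acss1 (0.003), Rgcc, a cell cycle regulator (0.016), BC055324 (0.016), Rrm2, a subunit of ribonucleotide reductase (0.016), and Akr1b10 (0.018). Sox9 and Sox8 lay 0.153 apart, Sox8 and Sox10 0.164, and Sox9 and Sox10 0.232. With 4 arrays in 2 groups this measure mostly reflects the difference between groups: 3.21% of the other genes lay within 0.2 of Sox9 and 3.75% within 0.2 of Sox8, against 78.2% within 0.2 of Sox10.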

How the data were processed

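The deposited table holds log2 expression values that the authors made with RMA, per the submitters' processing notes. The version of RMA, the build and any filters, not given in the sources used here, stay unknown. RMA equalises the arrays, so a change shared by most genes cannot be seen. Precision is limited by the number of arrays. Symbols came from the platform annotation, updated by Entrez identifier through the RefSeq gene table (GRCm38.p6). Of 35557 features, 21789 had 1 symbol, 1621 had several and 12147 are unnamed here, and 21698 of the first matched the RefSeq table. The brightest feature stood for the 999 genes with several. Genes under the 30th percentile of the mean (log2 6.16) were left out.

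Mutants were compared with controls by limma 3.58.1 under R 4.3.3 (linear model with eBayes moderation, no trend or covariate), with Benjamini-Hochberg adjustment over the 13956 genes tested. The 2 residual degrees of freedom gained 3.31 from the prior. P-values set the group difference against the spread between these samples, moderated by that prior, which is taken over all genes. The 2 samples of a group differ in sex, so they are not repeats of 1 sample, but biological and technical spread cannot be separated. The fit was also run on data simulated from its own model, which cannot show whether these arrays follow that model. The members and gene lists were chosen with earlier results of these data known. Named genes are the Sox genes, list members called or with the 2 smallest p in a list, the 5 genes closest to each SoxE gene and their nearest measured neighbours; others are given as chosen after their values were seen. Alternatives varied the filter, features, normalization, variance model, arrays and pairing. Deviations of samples with the same replicate number correlated at -0.16, so these numbers were not taken as pairs.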

Additional observations from a re-analysis of the deposited data

How the results depend on the processing

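The differences of Sox8, Sox9 and Sox10 kept their direction under every setting that tested them; the stricter filter removes Sox8 and Sox10. Without 1 array in turn, Sox9 lay between -0.78 and -0.60, Sox8 between -0.67 and -0.50 and Sox10 between -0.33 and -0.23; the difference between Sox9 and Sox10 lay between -0.55 and -0.28, that between Sox8 and Sox10 between -0.37 and -0.25, and that between Sox9 and Sox8 (-0.10) ran from -0.28 to 0.068, turning positive without control 2 (0.0047) and without mutant 1. Sox9 at -0.69 was no longer called when dim genes were kept, when every feature was tested, with the crossed pairing, or without either control. Sox8 at -0.59 was called with a mean trend and with the replicate block, under which Sox9 was still called (-0.69). Sox8 was also called without either mutant, in fits that leave 1 mutant array. Among Sox genes near 0, differences that were never called changed sign: without 1 array in turn Sox1 ran from -0.163 to 0.0089, Sox13 from -0.059 to 0.087, Sox17 from -0.070 to 0.120 and Sox7 from -0.033 to 0.058.

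The number of genes called in limma depended on the arrays and the filter; the cause was not tested beyond the number of genes or arrays each setting leaves. Against 141 lower and 2 higher, leaving out 1 array gave 9 to 731 lower and 0 to 150 higher. There were 15 lower and 0 higher with dim genes kept (1114 and 1001 at an unadjusted p under 0.05), and 0 and 0 with every feature tested (1487 and 1516). A mean trend gave 217 and 21, the stricter filter 11 higher, and further quantile normalization 1 higher. Among the genes of the lists, 22 were called lower and 0 higher: 7 to 50 lower and 0 to 3 higher without 1 array, 10 lower with dim genes kept, 0 with every feature tested, and 1 higher with arrays centred on their median or with a mean trend. The replicate block gave 113 lower and 3 higher over all genes and 20 lower on the lists. The crossed pairing of replicate numbers, which is also embryo sex and was chosen after seeing the data, gave 17 lower and 0 higher (919 and 535 at an unadjusted p under 0.05), with 10 lower on the lists.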
